A study of Homo sapiens with 15 samples.

Results

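The integrin subunits described here are the 10 genes ITGA2, ITGA3, ITGA5, ITGA6, ITGAV, ITGB1, ITGB3, ITGB4, ITGB5 and ITGB8, alpha and beta chains of integrins of breast cancer cells. They were taken by gene symbol from a table of 59608 genes, where each of the 10 has its own row, and they were compared by the heterodimers that the chains form. RNA came from MDA-MB-231, an established human triple-negative breast cancer line, grown in 2D and treated for 6 h with 0.1% DMSO alone or with ZJ-101, made as a simpler relative of superstolide A, a marine natural product. The doses were 0.5, 5, 50 and 500 nM, and each of the 5 groups held 3 libraries, 15 in all. The labels call the treated ones biological replicates and number the DMSO ones only as replicates, and the methods of the study give 3 biological replicates. All libraries are of a single cell line in bulk culture, so fewer cells of a kind and less RNA per cell cannot be told apart.

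Values are normalized counts, that is, reads counted on a gene divided by a size factor of the library. The libraries held between 12415519 and 15284762 reads on genes, and a gene was tested if its mean over the 15 libraries was at least 10 normalized counts, which 13561 genes and 9 of the 10 subunits met. The markers of this line (VIM, CD44, ZEB1, FOXC1 and EGFR) all passed that filter, their sum lying between 32417 and 32964 normalized counts in DMSO and between 31319 and 32752 at 500 nM. Within that sum, EGFR rose by 0.70 on the log2 scale (limma adjusted p = 0.00017) and CD44 fell by 0.38 (adjusted p = 1.4e-06) at 500 nM. Of 6 leukocyte markers, CD3E was at 0 in every library and 1 passed the filter, with a summed level of 28.4 to 33.6 in DMSO and 9.17 to 18.2 at 500 nM. Of 5 endothelial and platelet markers 1 passed, with sums of 247 to 303 and 205 to 234, and of 5 fibroblast markers 2 passed, with sums of 256 to 286 and 223 to 278. Of 7 luminal epithelial markers 6 passed, with sums of 17559 to 18481 in DMSO and 17139 to 17734 at 500 nM, and of these CDH1 was called lower at 0.5 nM (log2 difference -0.79, limma adjusted p = 0.012), 5 nM (-0.66, adjusted p = 0.019) and 500 nM (-0.54, adjusted p = 0.012). The part of these markers in the results was not tested. One library stood apart before any comparison. In replicate 2 of 0.5 nM the 3401 genes with transcripts of at least 5000 bases lay at a median of -0.12 on the log2 scale from their group means and the 3241 genes under 2000 bases at 0.11, the opposite of replicate 3 (0.081 and -0.059). In the other 13 libraries both medians were within 0.05 of 0. Replicate 2 was the lowest of its group for all 9 tested subunits, and results that rest on it are given with and without it.

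Integrins are receptors for the extracellular matrix in which an alpha chain pairs with a beta chain. The pair decides the ligand: the β1 chain joins many alpha chains to bind collagen, laminin or fibronectin, the αV chain joins several beta chains to bind matrix proteins with an RGD motif, and α6β4 anchors epithelial cells to laminin through hemidesmosomes. Cytoplasmic adaptors such as talin and kindlin activate the receptor and tie it to actin. In breast cancer cells integrins are studied for their part in attachment, migration and survival.

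In the DMSO libraries, ITGB1 and the laminin-binding alpha chains were the most abundant. Per kb of merged exons, the mean level in DMSO was 1779 ± 32.3 normalized counts (SD, n = 3) for ITGB1, the common beta chain. It was 1255 ± 12.4 for ITGA6 and 1134 ± 11.5 for ITGA3, both alpha chains of laminin receptors. ITGB4, which pairs with ITGA6, stood at 870 ± 18.2 and ITGA2, the alpha chain of a collagen receptor, at 749 ± 21.2. The next values were 423 ± 6.38 for ITGB5, 386 ± 8.95 for ITGA5, 127 ± 5.25 for ITGAV and 22.7 ± 3.44 for ITGB3. ITGB8 had 0.541 ± 0.344. No neighbours in this order overlapped in their 3 DMSO libraries, but the order of close pairs depends on the length used. Per kb of the canonical transcript ITGA3, at 2273, was above ITGA6, at 1442, and ITGA5, at 670, was above ITGB5, at 620.

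At 500 nM, 6 of the 9 tested subunits fell and 1 rose against DMSO, 7 of 9 in all, where 17.8% of tested genes were called in either direction, 10.1% lower and 7.69% higher. The subunits that fell were ITGA5, ITGA6, ITGB3, ITGB5, ITGAV and ITGB1, and the one that rose, by little, was ITGA3. ITGA2 and ITGB4 did not pass. The libraries of DMSO and 500 nM did not overlap for 8 of the 9, against 38.5% of tested genes. The median log2 difference was -0.34 over the 9 and 0.00 over all tested genes. Calls are from limma with Benjamini-Hochberg adjustment over the 13561 genes at an adjusted p under 0.05, and differences are on the log2(normalized count + 1) scale.

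**Figure D1:**
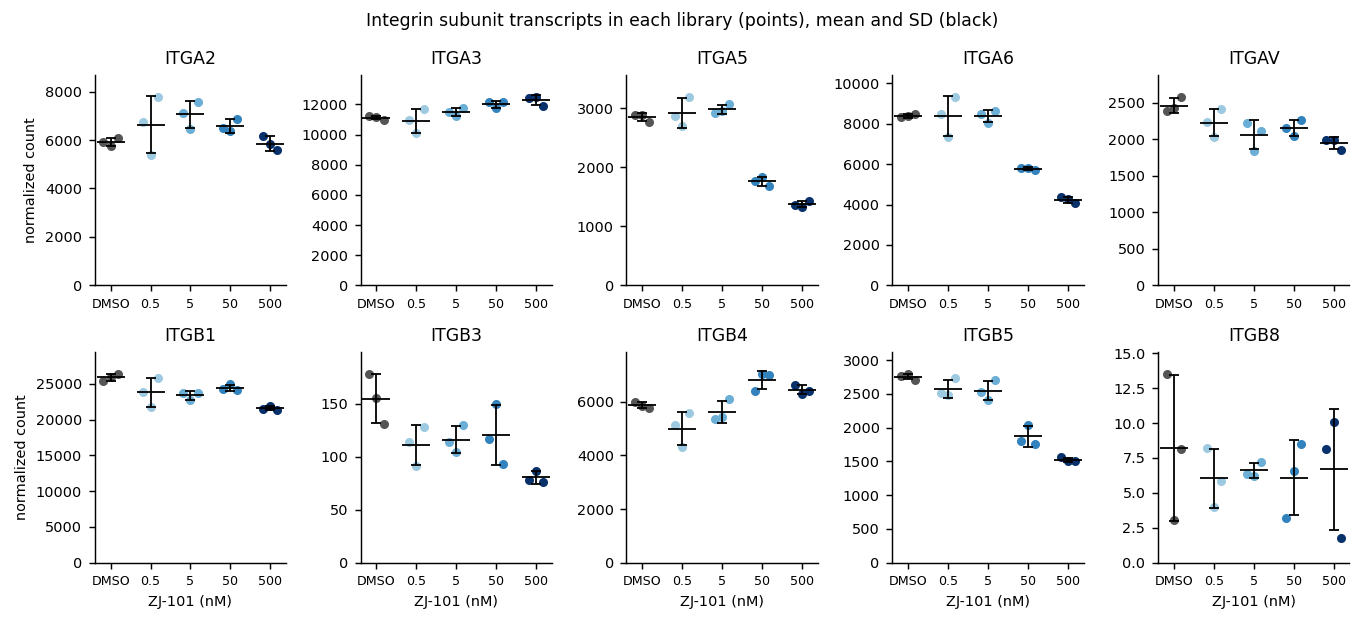
Normalized count (vertical axis, from 0) of each of the 10 integrin subunits in every library, against the dose of ZJ-101 in nM (horizontal axis). Points are libraries and black marks are the mean and SD of 3. ITGA5, ITGA6 and ITGB5 have their 50 and 500 nM libraries below every DMSO library, and ITGB8 stays between 1.77 and 13.5.

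ITGA5 encodes the alpha chain of the fibronectin receptor α5β1 (ENSG00000161638, GRCh38 chromosome 12, bases 54395261 to 54419266, minus strand). Its normalized counts were 2882, 2888 and 2771 in DMSO, 2865, 2693 and 3188 at 0.5 nM, and 2919, 2947 and 3072 at 5 nM. At 50 nM they were 1771, 1839 and 1683, and at 500 nM 1364, 1330 and 1435. The libraries thus fell into a high set up to 5 nM and lower sets at 50 and 500 nM that did not overlap it or each other. The log2 difference from DMSO was -0.69 ± 0.06 (SE) at 50 nM (limma adjusted p = 9.8e-08) and -1.05 ± 0.06 at 500 nM (adjusted p = 1.6e-10).

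ITGA6 encodes the alpha chain of the laminin receptors α6β1 and α6β4 (ENSG00000091409, chromosome 2, bases 172427354 to 172506459, plus strand). The DMSO libraries held 8307, 8376 and 8471 normalized counts. At 50 nM the values were 5798, 5829 and 5694, and at 500 nM 4367, 4271 and 4056. At 5 nM the values of 8455, 8050 and 8603 spanned those of DMSO, whereas those of ITGA5 lay above them, and from 50 nM on no library of either gene reached DMSO. The log2 difference was -0.54 ± 0.06 at 50 nM (adjusted p = 8.5e-06) and -0.99 ± 0.06 at 500 nM (adjusted p = 1.2e-09), with limma. In GENCODE 44, 5.3% of its exon bases lie under antisense lncRNA genes, and the strand setting of the counting is not given in the sources used here.

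ITGB5 encodes the beta chain of αVβ5, a vitronectin receptor (ENSG00000082781, chromosome 3, bases 124761948 to 124901418, minus strand). Its values were 2765, 2790 and 2709 in DMSO, 1808, 2046 and 1754 at 50 nM, and 1557, 1502 and 1507 at 500 nM. Again the 3 sets were apart from each other. The fall was 0.56 on the log2 scale at 50 nM (SE 0.06, limma adjusted p = 1.8e-06), and the log2 difference at 500 nM was -0.86 ± 0.06 (adjusted p = 2.6e-09). For ITGA5, ITGA6 and ITGB5 the 50 and 500 nM calls held in all 28 alternative analyses.

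ITGB3 encodes the beta chain of αVβ3, which binds RGD ligands, and of the platelet integrin (ENSG00000259207, chromosome 17, bases 47253827 to 47313743, plus strand). It was weakly expressed, at 178, 156 and 131 normalized counts in DMSO, 114, 91.1 and 128 at 0.5 nM, and 114, 105 and 130 at 5 nM. The values were 117, 150 and 93.6 at 50 nM, and 78.5, 87.0 and 76.0 at 500 nM. Its libraries lay below all DMSO libraries at 0.5, 5 and 500 nM and overlapped them at 50 nM. The log2 difference was -0.48 ± 0.16 at 0.5 nM (limma adjusted p = 0.17), -0.40 ± 0.16 at 5 nM (adjusted p = 0.28), -0.38 ± 0.16 at 50 nM (adjusted p = 0.22) and -0.93 ± 0.16 at 500 nM (adjusted p = 0.00046). Its level is uncertain because 33.2% of its exon bases are shared with an overlapping protein-coding gene on the same strand, ENSG00000259753, and reads there can be split or dropped in counting.

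ITGAV and ITGB1 moved less. ITGAV is the alpha chain shared by αVβ1, αVβ3, αVβ5 and αVβ8 (ENSG00000138448, chromosome 2, bases 186590010 to 186680901, plus strand), with 2385, 2421 and 2576 normalized counts in DMSO and 1991, 1992 and 1849 at 500 nM. ITGB1, the beta chain of the collagen, laminin and fibronectin receptors (ENSG00000150093, chromosome 10, bases 32887273 to 33005792, minus strand), had 25403, 25985 and 26333 in DMSO and 21436, 21942 and 21402 at 500 nM. For both genes the 5, 50 and 500 nM libraries lay below all DMSO libraries. The log2 difference at 500 nM was -0.34 ± 0.07 for ITGAV (limma adjusted p = 0.0017) and -0.26 ± 0.05 for ITGB1 (adjusted p = 0.0011). ITGB1 stayed the subunit with the highest level per kb, at 1483 ± 20.8 (SD, n = 3).

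The promoters of ITGA5, ITGA6 and ITGB5, the subunits that fell at both 50 and 500 nM, are shown with that of ITGB1, a partner chain called at 500 nM and not at 50 nM. Each line is the 250 bases before the RefSeq start (GRCh38.p14), 5′ to 3′ on the gene's strand, with capitals at matches to the motifs searched. The windows are chr12:54419267-54419516 (minus strand) for ITGA5, chr2:172427336-172427585 (plus) for ITGA6, chr3:124887366-124887615 (minus) for ITGB5 and chr10:32958231-32958480 (minus) for ITGB1.
ITGA5: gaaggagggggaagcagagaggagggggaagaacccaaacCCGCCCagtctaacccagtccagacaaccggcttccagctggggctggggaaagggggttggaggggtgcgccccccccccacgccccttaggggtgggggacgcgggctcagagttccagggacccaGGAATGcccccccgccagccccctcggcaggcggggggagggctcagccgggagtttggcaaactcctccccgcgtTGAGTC
ITGA6: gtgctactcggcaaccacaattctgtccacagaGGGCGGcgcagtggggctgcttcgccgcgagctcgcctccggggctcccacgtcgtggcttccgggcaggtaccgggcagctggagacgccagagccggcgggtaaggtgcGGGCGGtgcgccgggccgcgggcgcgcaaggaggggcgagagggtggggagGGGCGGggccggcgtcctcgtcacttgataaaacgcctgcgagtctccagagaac
ITGB5: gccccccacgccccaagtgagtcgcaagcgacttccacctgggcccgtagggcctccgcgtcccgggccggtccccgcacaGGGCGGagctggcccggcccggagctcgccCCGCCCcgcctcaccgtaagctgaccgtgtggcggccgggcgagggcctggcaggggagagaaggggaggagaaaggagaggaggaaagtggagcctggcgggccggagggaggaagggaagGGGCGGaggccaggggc
ITGB1: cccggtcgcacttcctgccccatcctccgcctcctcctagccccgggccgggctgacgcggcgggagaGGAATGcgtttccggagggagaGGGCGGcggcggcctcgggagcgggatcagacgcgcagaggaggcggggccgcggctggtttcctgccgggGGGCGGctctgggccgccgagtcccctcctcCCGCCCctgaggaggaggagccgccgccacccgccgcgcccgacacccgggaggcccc
The motifs, on both strands of the 250 bases before and 50 after the start, were GGGCGG (GC box), the AP-1 motif TGANTCA, the CCAAT box, the TEAD motif GGAATG, the E-box CACGTG and the heat-shock element units GAANNTTC.

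GC boxes were in all 4 of these promoters, 1 in ITGA5 and 3 in each of ITGA6, ITGB5 and ITGB1, and in 44.9% of the 34943 promoters of the same length. ITGA5 alone of the 4 had an AP-1 match, TGAGTCA, which overlaps the start so that its final base is transcribed, and 7.7% of all promoters hold that motif. A TEAD match was in ITGA5, 82 bases before the start, and in ITGB1, and in 14.0% of all promoters. CCAAT (34.6% of promoters), CACGTG (7.2%) and GAANNTTC (6.8%) had no match in the 4. ITGA2, not called by limma at any dose over all 15 libraries, had 4 GC boxes, and ITGAV had none of the motifs. The promoters of ITGA3, ITGB3 and ITGB4 were not analysed here. A match is a run of letters and was not tied to binding by any measurement here.

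ITGA3, ITGB4 and ITGA2 were not among the subunits that fell. ITGA3, the alpha chain of the laminin receptor α3β1 (ENSG00000005884, chromosome 17, bases 50055968 to 50090481, plus strand), had 11196, 11156 and 10984 normalized counts in DMSO and 12443, 12479 and 11882 at 500 nM. Its log2 difference at 500 nM was 0.14 ± 0.05 with a limma adjusted p of 0.042, a call near the threshold that was lost in 12 of 28 alternatives, 10 of which left out a library (any of DMSO or 5 nM, replicate 1 of 0.5 nM, 3 of 50 nM, or 1 or 2 of 500 nM). The difference stayed between 0.13 and 0.17. ITGB4, the beta chain of α6β4 (ENSG00000132470, chromosome 17, bases 75721328 to 75757818, plus strand), had 6014, 5856 and 5772 in DMSO, 6424, 7032 and 7008 at 50 nM, and 6637, 6306 and 6426 at 500 nM. Every ITGB4 library of the 2 high doses was above every DMSO library, but the log2 difference of 0.21 ± 0.07 at 50 nM (adjusted p = 0.091) and of 0.13 ± 0.07 at 500 nM (adjusted p = 0.22) did not pass.

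ITGA2, the alpha chain of the collagen receptor α2β1 (ENSG00000164171, chromosome 5, bases 52989340 to 53094779, plus strand), had 5938, 5740 and 6073 normalized counts in DMSO and 6163, 5826 and 5569 at 500 nM. These overlapped, and the difference of -0.02 had a 95% interval of -0.20 to 0.17 (limma adjusted p = 0.93). ITGB8, the beta chain of αVβ8, which binds latent TGF-beta (ENSG00000105855, chromosome 7, bases 20330702 to 20415754, plus strand), was not tested: it had 2 to 14 reads in a library, and group means between 6.04 and 8.20 normalized counts. With so few reads, no statement is made here on a difference in ITGB8.

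**Figure D2:**
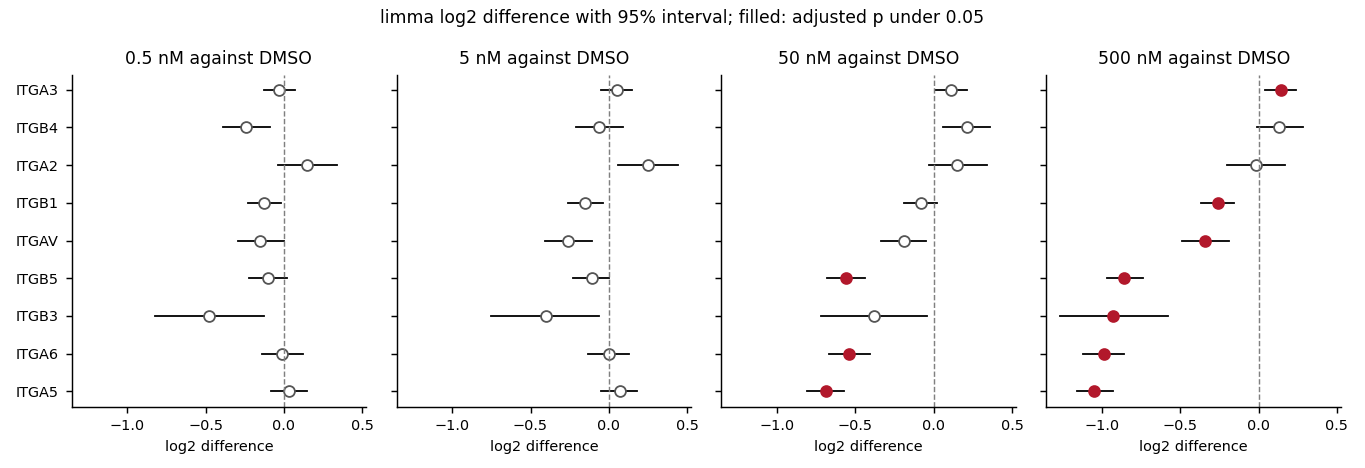
Log2 difference from DMSO (horizontal axis) of the 9 tested subunits (vertical axis) at each dose of ZJ-101. Points are limma estimates, lines are 95% intervals and filled points have an adjusted p under 0.05. No point is filled at 0.5 or 5 nM, 3 are filled at 50 nM and 7 at 500 nM.

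Step by step, subunits were called only above 5 nM. At 50 nM against DMSO 3 of 9 subunits were called, all lower, where 6.00% of tested genes were called, 3.71% of all being lower. Libraries did not overlap for 8 of 9, against 24.8% of tested genes. From 5 to 50 nM, compared directly, 4 of 9 were called, 3 lower and 1 higher, against 5.01% of tested genes, 2.39% lower and 2.62% higher. ITGA5 fell by 0.76 on the log2 scale (SE 0.06, limma adjusted p = 7.2e-08), ITGA6 by 0.54 (SE 0.06, adjusted p = 1.9e-05) and ITGB5 by 0.45 (SE 0.06, adjusted p = 6.1e-05). ITGB4 moved the other way, from 5348, 5450 and 6112 to 6424, 7032 and 7008 normalized counts, a log2 rise of 0.28 ± 0.07 (adjusted p = 0.027) that was lost without replicate 1 or 2 of 5 nM or replicate 2 or 3 of 50 nM.

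From 50 to 500 nM, 3 of 9 subunits were called, all lower, against 2.28% of tested genes, of which lower were 1.80% of all. They were again ITGA5 at -0.36 ± 0.06 (limma adjusted p = 0.0011), ITGA6 at -0.45 ± 0.06 (adjusted p = 0.00031) and ITGB5 at -0.29 ± 0.06 (adjusted p = 0.0074). The values of ITGB1, -0.18 ± 0.05 (adjusted p = 0.079), and ITGB3, -0.55 ± 0.16 (adjusted p = 0.10), did not pass. Without replicate 2 of 0.5 nM, whose spread enters every comparison through the shared variance, both passed (adjusted p = 0.006 and 0.039), giving 5 of 9. The 2.28% is from the fit of all libraries, and the share of tested genes called without that library is not given here. Without replicate 2 of 50 nM the ITGB5 call was lost.

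At the low doses limma called 0 of 9 subunits: 0 at 0.5 nM, where 1.17% of tested genes were called, 0 at 5 nM, where 2.18% were, and 0 from 0.5 to 5 nM, where 0.118% were. At an unadjusted p under 0.05 there were 4 at 0.5 nM (ITGAV, ITGB1, ITGB3 and ITGB4, all lower), 4 at 5 nM (ITGA2 higher, ITGAV, ITGB1 and ITGB3 lower) and 1, ITGB4, for the step. The share of all tested genes at an unadjusted p under 0.05 is not given here. Such counts, also those of the lists below, therefore cannot be set against all genes. edgeR called 0 in each of the 3 comparisons, and DESeq2 called ITGB4 at 0.5 nM, ITGAV at 5 nM and 0 in the step. Libraries did not overlap those of DMSO for 2 of 9 subunits at 0.5 nM against 18.1% of tested genes, and for 7 of 9 at 5 nM against 23.2%. ITGAV, for example, had 2226, 1837 and 2117 normalized counts at 5 nM, all below DMSO, with a log2 difference of -0.26 ± 0.07 and an adjusted p of 0.059.

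The library that stood apart bears on the low doses. Without replicate 2 of 0.5 nM, limma called ITGA2 at 0.5 nM (log2 difference 0.29, adjusted p = 0.028) and, at 5 nM, ITGA2 (0.25, adjusted p = 0.013), ITGAV (-0.26, adjusted p = 0.014) and ITGB1 (-0.15, adjusted p = 0.025). ITGA2 in that group had 6739, 5401 and 7773 normalized counts, the widest spread of the 5 groups for this gene, and 7124, 6475 and 7577 at 5 nM, above DMSO in each library. Without replicate 3 of 0.5 nM, ITGB1 and ITGB4 were called at 0.5 nM and ITGAV at 5 nM. Without replicate 1 of 5 nM, ITGAV was called at 5 nM. ITGB4 was called at 50 nM without replicate 3 of 0.5 nM. At 50 nM the call count was 5 of 9 without replicate 2 of 0.5 nM, with ITGAV (-0.19, adjusted p = 0.046) and ITGB4 (0.21, adjusted p = 0.0067) added to ITGA5, ITGA6 and ITGB5. The share of all tested genes called without a library is not given here. Counts without a library, also those of the lists below, therefore cannot be set against all genes.

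A line on the rank of the dose (0 for DMSO to 4 for 500 nM) had a slope for 8 of 9 subunits, 6 down and 2 up, against 17.6% of tested genes, 9.33% down and 8.23% up. The steepest was ITGA5, at -0.28 ± 0.04 per rank on the log2 scale (limma adjusted p = 1.6e-05), followed by ITGA6 at -0.25 ± 0.03 (adjusted p = 9.7e-06) and ITGB5 at -0.22 ± 0.02 (adjusted p = 6.3e-07). The rising ones were ITGB4 at 0.07 ± 0.02 (adjusted p = 0.046) and ITGA3 at 0.04 ± 0.01 (adjusted p = 0.011), and ITGA2 had no called slope (-0.00, adjusted p = 0.95). A slope does not mean a change at each step. The ITGB4 libraries at 0.5 nM, with 5122, 4324 and 5571 normalized counts, were all below DMSO. Its mean was 6821 at 50 nM and 6456 at 500 nM. The ITGB4 slope was lost in 10 fits without 1 library (replicate 1 or 3 of 0.5 nM, 2 or 3 of 5 nM, or any of 50 or 500 nM) and the ITGB1 slope in 5 (replicate 2 or 3 of DMSO, or any of 500 nM).

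Compared by heterodimer, the alpha and beta chains of most pairs did not move by the same amount. Both chains of α5β1, α6β1, αVβ1, αVβ3 and αVβ5 were called lower at 500 nM. Each library gave the log2 ratio of its alpha to its beta count, and the 6 libraries of 50 and 500 nM were set against the 3 of DMSO with an exact two-sided permutation test over 84 splits, where the smallest possible p is 0.024. The 9 pairs reuse ITGB1, ITGA6 and ITGAV, so they are not independent. These are transcript ratios, and no protein or surface level was measured in these libraries. Of the 9 ratios, 6 moved at an adjusted p under 0.05, 3 down and 3 up. Ratios of other gene pairs were not computed, so this count has no share beside it and describes these pairs only. For single genes, 3 libraries against 3, the libraries did not overlap DMSO for 24.8% of tested genes at 50 nM and 38.5% at 500 nM. That is another measure and no benchmark for the ratios.

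The largest fall was in the α6β4 ratio. On the log2 scale it was 0.51 ± 0.04 (SD, n = 3) in DMSO and higher, 0.74 ± 0.02, at 0.5 nM. It was 0.57 ± 0.08 at 5 nM, -0.24 ± 0.08 at 50 nM and -0.61 ± 0.05 at 500 nM. Counts of ITGA6 thus went from above to below those of ITGB4. The difference was -0.94 (exact permutation p = 0.024, adjusted over the 9 pairs 0.036). The ratio of the fibronectin receptor pair α5β1 fell by 0.70, from -3.19 ± 0.06 in DMSO to -3.79 ± 0.04 at 50 nM and -3.97 ± 0.07 at 500 nM. That of α6β1 fell by 0.59, from -1.63 ± 0.01 to -2.08 ± 0.01 and -2.35 ± 0.05. Each had the same exact permutation p of 0.024 and adjusted p of 0.036. At 0.5 and 5 nM both were above DMSO. The means there were -3.03 ± 0.02 and -2.97 ± 0.04 for α5β1, and -1.51 ± 0.05 and -1.48 ± 0.02 for α6β1. Ratios at these low doses were not tested.

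In the other direction, the αVβ5 ratio rose by 0.44, from -0.16 ± 0.08 (SD, n = 3) in DMSO to 0.21 ± 0.19 at 50 nM and 0.35 ± 0.06 at 500 nM. Both of its chains were lower at 500 nM, ITGB5 (log2 difference -0.86) by more than ITGAV (-0.34). The ratio of the laminin pair α3β1 rose by 0.30 and that of the collagen pair α2β1 by 0.24. Both were again at an exact permutation p of 0.024 and an adjusted p of 0.036. At 500 nM the log2 difference was -0.26 for their shared ITGB1, 0.14 for ITGA3 and -0.02 for ITGA2. The α2β1 ratio had no order by dose: its differences from DMSO were 0.28, 0.40, 0.24 and 0.25 from 0.5 to 500 nM. For the 6 pairs every library of the 2 high doses was outside the DMSO range. The remaining pairs did not pass, with -0.09 for αVβ1 (exact permutation p = 0.048, adjusted 0.061), 0.39 for αVβ3 (adjusted exact p = 0.16) and 0.02 for αVβ8 (adjusted exact p = 0.98), the last resting on 2 to 14 reads of ITGB8.

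**Figure D3:**
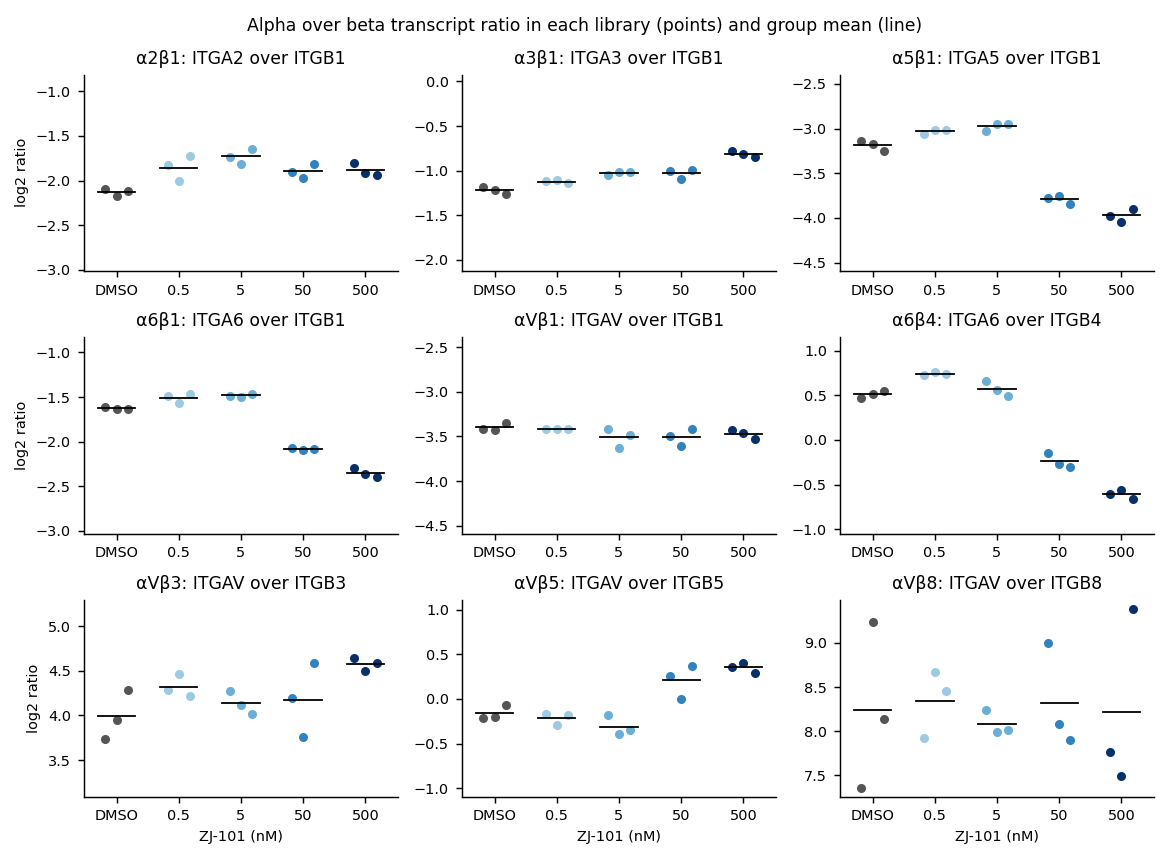
Log2 ratio of alpha to beta normalized count (vertical axis, each panel spanning at least 2.2 log2 units) in every library for the 9 heterodimers, against the dose of ZJ-101 in nM (horizontal axis). Points are libraries and lines are group means. The α6β4 ratio goes from 0.51 in DMSO to -0.61 at 500 nM and αVβ5 from -0.16 to 0.35, while αVβ1 stays between group means of -3.51 and -3.40.

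The make-up of the summed transcript level was set out in the same way. Per kb of merged exons, the 5 alpha chains summed to 3651 ± 15.5 (SD, n = 3) in DMSO and 2913 ± 90.1 at 500 nM. ITGA6 held 34.4% ± 0.284 of that sum in DMSO and 21.7% ± 0.150 at 500 nM, and ITGA5 held 10.6% ± 0.285 and 6.41% ± 0.433. ITGA3, at 31.0% ± 0.422 and then 43.0% ± 0.490, was the largest at 500 nM, and ITGA2 had 20.5% ± 0.495 and 25.4% ± 0.572. These shares are a description and depend on the length: per kb of the canonical transcript ITGA3 held 41.4% in DMSO and 54.8% at 500 nM, and ITGA6 26.3% and 15.9%.

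Among the 5 beta chains, which summed to 3095 ± 8.64 per kb in DMSO and 2684 ± 21.1 at 500 nM, the share of ITGB1 was 57.5% ± 0.920 and 55.3% ± 0.865. ITGB4 went from 28.1% ± 0.654 to 35.6% ± 0.774 and ITGB5 from 13.7% ± 0.208 to 8.70% ± 0.124, with no overlap of libraries for either. ITGB3 and ITGB8 together made up under 1% in every group mean. Per kb of the canonical transcript ITGB1 held 80.8% and 79.9% of the beta sum, so its share depends on the length more than on the dose.

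**Figure D4:**
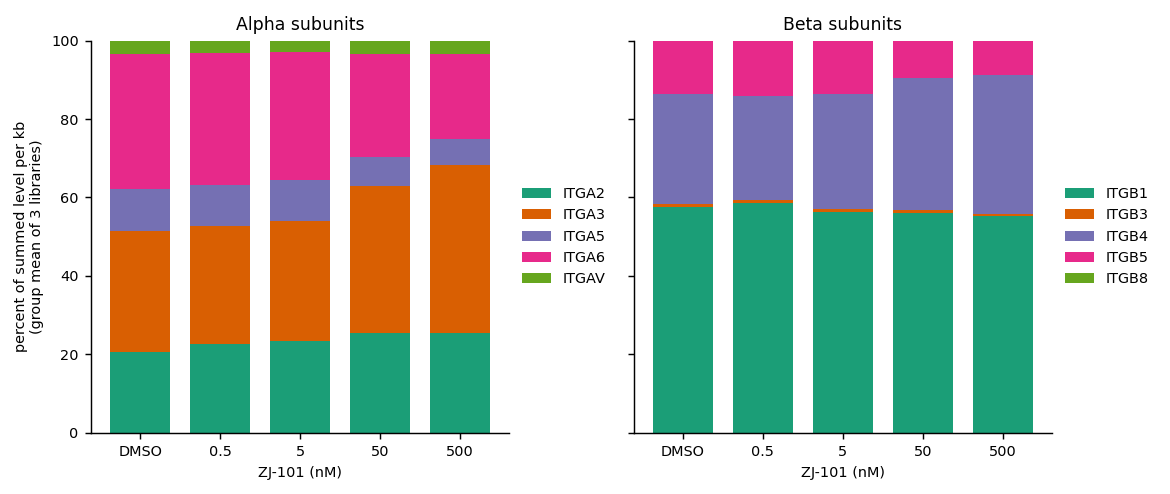
Share of each subunit in the summed alpha (left) and beta (right) level per kb of merged exons, in percent (vertical axis, mean of 3 libraries), against the dose of ZJ-101 in nM (horizontal axis). ITGA6 narrows from 34.4% to 21.7% and ITGA3 widens from 31.0% to 43.0%, and ITGB1 stays near its 57.5% of DMSO. ITGB8 is too small a share to be seen.

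Of 16 other integrin subunit genes, 7 passed the filter, as did 13561 of 59608 genes in the table. At 500 nM limma called 3 of the 7 lower and 0 higher, where 10.1% of tested genes were lower and 7.69% higher, and at an unadjusted p under 0.05 there were also 3 lower and 0 higher. edgeR called 3 lower and DESeq2 2, both with 0 higher. Without replicate 1 of DMSO or replicate 3 of 500 nM the count was 1 lower. ITGA1, a collagen-binding alpha chain, went from 1173, 1138 and 1068 normalized counts in DMSO to 860, 867 and 820, a log2 difference of -0.41 ± 0.09 (limma adjusted p = 0.0024). ITGA10, another collagen-binding chain, was at -0.45 ± 0.14 (adjusted p = 0.034) and ITGB7, a leukocyte beta chain, at -0.88 ± 0.24 (adjusted p = 0.016) from a mean of 30.7 in DMSO. Both calls were lost without replicate 1 of DMSO or replicate 3 of 500 nM, that of ITGA10 also without replicate 2 of DMSO, replicate 1 or 2 of 500 nM, or with DESeq2. Overlaps make the levels uncertain, as 42.3% of ITGB7 exon bases lie in ZNF740 and 13.2% of those of ITGA1 in other genes. ITGB2 (-0.12), ITGAE (0.12), ITGA7 (0.28) and ITGB6 (0.42) did not pass, and the last pair had means near the filter.

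Most matrix ligands of integrins were also lower. Of 27 listed, 23 were tested, and at 500 nM 17 fell and 1 rose, where 10.1% of tested genes were called lower and 7.69% higher, with a median log2 difference of -0.59. The largest falls were LTBP1, which binds latent TGF-beta to the matrix, at -1.65 ± 0.10 (limma adjusted p = 6.4e-10), FBN1, the microfibril protein fibrillin, at -1.24 ± 0.10 (adjusted p = 6.7e-08), and LAMC1, the common laminin gamma chain, at -1.21 ± 0.10 (adjusted p = 4.4e-08). LAMC1 had 8235, 8594 and 8290 normalized counts in DMSO and 4030, 3324 and 3571 at 500 nM, with no overlap. LAMB3, a chain of the laminin that α3β1 and α6β4 bind, rose by 0.41 ± 0.04 (adjusted p = 1.3e-06), from 4485, 4305 and 4306 to 6002, 5672 and 5751. FN1, the fibronectin that α5β1 binds, was at 0.08 ± 0.12 (adjusted p = 0.72), and was named after its value was seen. VTN, the ligand of αVβ5, was below the filter with a mean of 4.68 in DMSO, and was named in the same way.

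On the cytoplasmic side, of 25 tested adaptors and activators, 2 rose at 500 nM and 0 fell, where 7.69% of tested genes were called higher and 10.1% lower. Their median log2 difference was 0.01. They were APBB1IP, the Rap1 effector RIAM, at 0.34 ± 0.07 (limma adjusted p = 0.0014) and PXN, the adhesion scaffold paxillin, at 0.18 ± 0.06 (adjusted p = 0.027), the latter lost in 7 alternatives. At an unadjusted p under 0.05 there were 5 higher and 1 lower, and edgeR and DESeq2 each called the same 2 higher and 0 lower. Without replicate 2 of 0.5 nM the counts were 5 higher and 2 lower, and without any 1 of DMSO, or replicate 1 or 3 of 500 nM, 1 was higher. ILK, the integrin-linked kinase, was below the filter, and 78.5% of its exon bases lie in other genes, so its count is uncertain. The count of PXN is also uncertain, as 27.2% of its exon bases lie in other genes.

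Among 19 tested membrane partners and trafficking genes, 1 rose and 6 fell at 500 nM, where 7.69% of tested genes were called higher and 10.1% lower, and 2 rose without replicate 1 of 500 nM. SLC3A2, which encodes the CD98 heavy chain that associates with beta chains, went from 2612, 2433 and 2389 normalized counts to 10476, 10704 and 10228, a log2 difference of 2.08 ± 0.07 (limma adjusted p = 1.8e-13). PLAUR, the urokinase receptor, was at -0.89 ± 0.05 (adjusted p = 5.2e-10), the ER chaperone CALR at -0.85 ± 0.05 (adjusted p = 5.2e-10) and FURIN, a protease that cleaves several alpha chains, at -0.71 ± 0.08 (adjusted p = 3e-06). Of the 5 hemidesmosome genes that work with α6β4, 3 were tested and limma called 0 at 500 nM. PLEC had 0.21 ± 0.09 (adjusted p = 0.14), DST 0.30 ± 0.20 and COL17A1 0.18 ± 0.11. At an unadjusted p under 0.05 there was 1, higher, and edgeR and DESeq2 called 0. Without replicate 2 of 0.5 nM there was 1, higher.

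**Figure D5:**
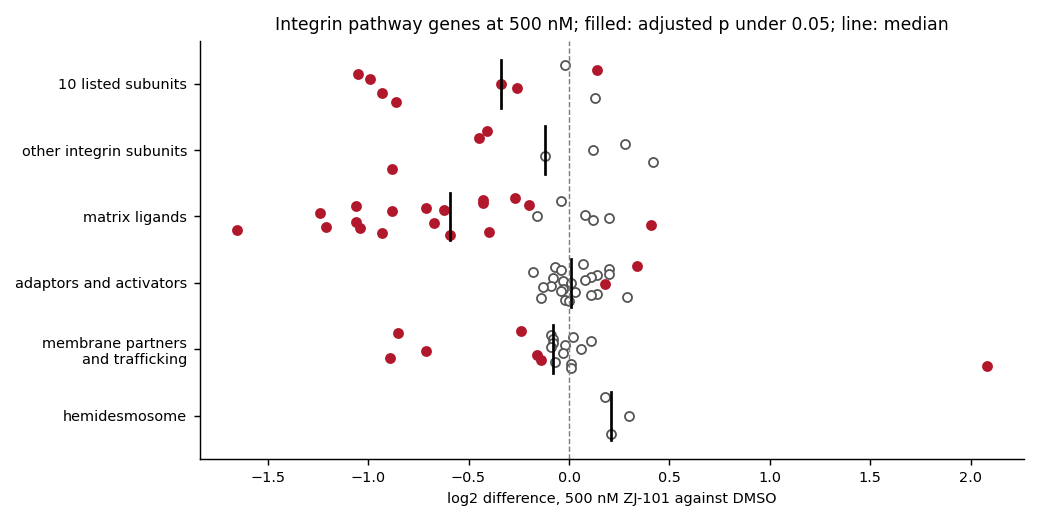
Log2 difference at 500 nM ZJ-101 against DMSO (horizontal axis) of each tested gene of 6 lists (vertical axis). Points are genes, filled where the adjusted p is under 0.05, and black lines are medians. The medians are -0.34 for the 10 listed subunits (9 tested), -0.59 for the ligands and 0.01 for the adaptors and activators.

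The genes whose log2 values followed ITGA5 most closely over the 15 libraries were SEC24D, a coat protein of vesicles leaving the ER (Pearson r = 0.994), CD276, an immune checkpoint protein (0.991), ERO1A, an ER oxidase (0.987), PLAU, the urokinase that binds the PLAUR receptor (0.986), and COL13A1, a membrane collagen (0.986). ITGA6 was the gene in place 6 of 13560 in this order and ITGB5 in place 11, each with an r of 0.98. Outside that set, ITGB1 had an r of 0.87 with ITGB3 and of 0.86 with ITGAV, and ITGA3 one of 0.83 with ITGB4. These values share the 5 dose groups and the libraries, so they describe a dose pattern and carry no test.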

How the data were processed

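Poly-A RNA was sequenced from MDA-MB-231 cells in 5 groups of 3 libraries. HISAT2 was used by the authors for alignment of read pairs to hg38, htseq-count for gene counts and DESeq2 for size factors, by which counts were divided, per the labels and methods. The methods name the most recent GENCODE release of that time without its number. Tool versions and strand setting are not given in the sources used here. The deposited signal values are therefore normalized counts. 1 line without a gene was left out. Every value was a whole multiple of 1 step per library, within 5.29e-05 of a whole read (tolerance 0.001), so reads were recovered for the count tests. Size factors were 0.916 to 1.13, and chi-square over degrees of freedom was 2.04 to 16.5 between replicates (sampling noise gives 1), so no pair was a repeat deposit of the same library. This does not show that the cultures were separate.

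The main test was limma 3.58.1 (R 4.3.3) with a mean-variance trend on log2(normalized count + 1), 13561 genes with a mean of at least 10, 15 libraries in 1 fit with 10 residual degrees of freedom, contrasts between doses, and Benjamini-Hochberg adjustment (threshold 0.05). A separate fit tested the slope on dose rank. The labels call the treated libraries biological replicates and the DMSO ones only replicates, while the methods give 3 biological replicates for this experiment. Neither says what was repeated, so p-values rest on the spread between these libraries. Subunit ratios used SciPy 1.17.1. Alternatives were pseudocounts of 0.5 and 5, no filter or a mean of 50, TMM or equal totals, edgeR 4.0.16, DESeq2 1.42.0, the replicate block, other thresholds, fewer libraries, and, added after seeing the data, removal of a length and GC trend and canonical lengths. The limma step was tested on simulated data. Positions and lengths are from GENCODE 44 on GRCh38, matched by symbol, the build the authors used. minimap2 2.31-r1302 found 0 near-identical copies of a subunit. The members and gene lists were chosen with earlier results of these data known. Named genes are all 10 subunits, every other integrin subunit that passed the filter, up to 3 rises and 3 falls per list at 500 nM, and the 5 genes most correlated with ITGA5. The 24 h spheroid experiment was not analysed here.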

Additional observations from a re-analysis of the deposited data

How the results depend on the processing

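The falls of ITGA5, ITGA6, ITGB5 and ITGB3 at 500 nM and of the first 3 at 50 nM kept direction and call in all 28 alternatives, and no called value reversed. Small differences depended on the settings. At 0.5 nM the count of called subunits, 0, became 1 with DESeq2 and ranged from 0 to 2 when 1 library was left out. At 5 nM, 0 became 1 at an adjusted p under 0.1 and with DESeq2, 2 with the length and GC trend removed, 3 with only the 6 libraries compared, and 0 to 3 with 1 library left out. At 50 nM, 3 became 6 with only those libraries and 6 with the trend removed (3 to 5 leaving 1 out). At 500 nM, 7 became 4 with an absolute log2 difference of at least 0.5, and 8, with ITGB4 added, with only the 6 libraries or with the trend removed (6 to 7 leaving 1 out). From 5 to 50 nM, 4 became 2 at that size (3 to 4 leaving 1 out). From 50 to 500 nM, 3 became 5 at an adjusted p under 0.1 and 0 at that size (2 to 5 leaving 1 out). The slope count of 8 became 5 over the treated libraries alone (6 to 8 leaving 1 out). Shares of all tested genes called under these settings are not given here. The cause was not tested, apart from thresholds and fewer libraries.

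At 50 nM alone the ratio differences were 0.19 for α3β1, -0.61 for α5β1, -0.46 for α6β1 and -0.75 for α6β4, and at 500 nM alone 0.41, -0.79, -0.72 and -1.12, where an exact permutation test of 3 against 3 cannot go below p = 0.10. With 1 library left out, differences ranged from 0.22 to 0.26 for α2β1, 0.27 to 0.33 for α3β1, -0.73 to -0.67 for α5β1, -0.62 to -0.55 for α6β1, -0.99 to -0.89 for α6β4, 0.42 to 0.50 for αVβ5 and -0.11 to -0.07 for αVβ1. Adjusted exact p was then 0.046 to 0.11 for the 6 called pairs, since 8 libraries allow fewer splits, and 0.046 to 0.18 for αVβ1.

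Replicate numbers did not pair the libraries: correlations of same-numbered deviations lay between -0.09 and 0.10, and 7 of 15 libraries correlated best with their own number. With the replicate block, 1 subunit, ITGAV, was called at 5 nM in place of 0, and the ITGB4 slope was lost. Each group holds every replicate number, so the block cannot change the ratio differences and does not test them. TMM and equal totals moved the median of all genes by 0.01 or less on the log2 scale. ITGB8 is limited by its reads.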
